A study of Homo sapiens with 4 samples.

Results

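The mitochondrial carrier genes were described in VCaP cells, a human prostate cancer line, after transfection with an siRNA against ZBTB7A (siZBTB7A) or with a non-targeting control siRNA (siNTC). All cells were kept in serum-containing medium. ZBTB7A encodes a zinc finger transcription factor known mainly as a repressor. The carriers were taken as every protein-coding gene whose GENCODE 29 symbol begins with SLC25A, plus MTCH1 and MTCH2. This gave 50 of the 60308 genes in the count tables, all 50 found by Ensembl identifier. Of these, 47 had at least 1 read and 42 had enough reads to be tested.

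Mitochondrial carriers are small membrane proteins built from repeats of a pair of helices, most of them in the inner mitochondrial membrane. They exchange nucleotides, phosphate, carboxylates, amino acids and cofactors between cytosol and matrix, and so link oxidative phosphorylation and biosynthesis to the rest of the cell. Prostate epithelium is known for the accumulation and secretion of citrate, the substrate of the carrier encoded by SLC25A1. A few members act elsewhere, such as the outer membrane proteins encoded by MTCH1, MTCH2 and SLC25A46.

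Each group had 2 count tables of stranded total RNA libraries, with 5556061 and 5745862 reads in genes for siZBTB7A and 5737738 and 5927656 for siNTC. The 2 tables of a group differed by no more than read sampling. A chi-square test over genes gave 0.995 per degree of freedom for siZBTB7A (12645 genes, p = 0.662) and 0.993 for siNTC (12762 genes, p = 0.724), against 3.50 to 3.64 between tables of different groups. The expected split came from total gene reads without TMM scaling, and genes with many reads can weigh most. The value between groups therefore does not show how many genes differed. Over the carriers alone it gave 1.12 within siZBTB7A and 1.02 within siNTC, against 1.75 to 2.05 between groups. The tables of a group were therefore counted as 1 library, and the labels do not say that they came from separate cultures. Calls below come from edgeR's quasi-likelihood test with Benjamini-Hochberg adjustment over all 12848 genes tested, at an adjusted p under 0.05. They take the 2 tables of a group as replicates. They thus compare 2 libraries and not the 2 conditions, so no p-value here measures the spread between cultures. The luminal prostate markers KLK2, KLK3, HOXB13, FOLH1 and ERG were all present, with 57869 reads in siZBTB7A and 59027 in siNTC. Most of these were KLK2 reads (44738 in siZBTB7A and 46253 in siNTC), and KLK3 had 607 in siZBTB7A and 580 in siNTC. Of the 5 markers, 3 were called higher in siZBTB7A (KLK2 at 1.02-fold, HOXB13 at 1.08-fold and FOLH1 at 1.16-fold), against 2.25% of all genes tested. A gene with many reads passes at a smaller fold, so this share is not read as particular to the markers. The exact 95% counting interval of the KLK2 fold was 1.010 to 1.037. With a correction for transcript GC content and length FOLH1 still passed, while KLK2 (adjusted p = 1) and HOXB13 (adjusted p = 0.143) did not. Markers of leukocytes held 23 reads in siZBTB7A and 18 in siNTC, and of fibroblasts 15 in each. The endothelial markers CDH5 and VWF held 9 in siZBTB7A and 4 in siNTC, and the endothelial marker PECAM1 was not matched to a gene. CD3E and CDH5 were at 0. ZBTB7A itself had 70 and 74 reads in the siZBTB7A tables and 90 and 115 in the siNTC tables, a fold of 0.743 with an exact 95% counting interval of 0.596 to 0.924, and did not pass the test (edgeR adjusted p = 0.0969).

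Of the 42 tested carriers, 2 were higher and 0 lower in siZBTB7A. SLC25A39, which encodes a carrier needed for glutathione import into mitochondria, rose 1.19-fold. SLC25A3, which encodes the phosphate carrier that supplies ATP synthase, rose 1.06-fold. In RNA from whole cultures, a change in the number of cells expressing a gene and a change in its RNA per cell cannot be told apart. Over all genes tested, 2.25% were called higher and 2.72% lower, so 2 of 42 carriers called is near the 4.97% called in either direction. At an unadjusted p under 0.05 in edgeR, 3 carriers were higher and 2 lower, against 9.02% and 8.9% of all genes. At an adjusted p under 0.05, DESeq2 called 1 carrier higher and 0 lower of the 6 carriers for which it gave an adjusted p, against 3.59% and 3.86% of the 1141 genes with one. A binomial test on each gene's summed reads called 2 higher and 0 lower, against 2.36% and 2.8%.

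SLC25A39 had 334.0 and 331.9 CPM (counts scaled to the TMM-adjusted gene reads of the table) in the siZBTB7A tables and 273.1 and 284.3 CPM in the siNTC tables. Both siZBTB7A tables lay above both siNTC tables. The summed reads were 3716 in siZBTB7A and 3293 in siNTC, a fold of 1.19 (exact 95% counting interval 1.14 to 1.25; edgeR adjusted p = 2.9e-09). The gene also passed in DESeq2 (adjusted p = 0.000305). With each table left out its log2 fold was between 0.22 and 0.29. Leaving out a table only removes reads of the same library, so this is not separate support. With a correction for transcript GC content and length its fold was 1.14 (adjusted p = 2.55e-05).

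SLC25A3 had 567.7 and 561.2 CPM in the siZBTB7A tables and 535.3 and 532.3 CPM in the siNTC tables. The groups did not overlap, but the difference was small, with 6300 summed reads in siZBTB7A and 6305 in siNTC and a fold of 1.06 (1.02 to 1.10; edgeR adjusted p = 0.0425). The call was lost in DESeq2 (adjusted p = 0.272) and when any of the 4 tables was left out, with adjusted p between 0.148 and 0.266. The log2 fold was 0.08 in the full fit and in DESeq2, and 0.07 to 0.09 with a table left out. With the GC content and length correction it was 0.12 (edgeR adjusted p = 0.00157). This correction took the longest annotated transcript, of 6087 bases, which need not be the expressed one. The principal transcript of the gene has 1678 bases. In 10 of the 42 carriers both siZBTB7A tables lay above both siNTC tables, against 23.5% of all genes tested. In 8 carriers both lay below, against 23.4% of all genes.

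The start sites of the 2 called genes are shown because ZBTB7A is a factor that binds promoters. Each sequence is the 250 bases before the RefSeq start (GRCh38.p14), 5′ to 3′ on the gene's strand, and capitals mark the letters GGGCGG of the GC box bound by SP1 and the letters CCAAT of the CCAAT box, on either strand (CCGCCC and ATTGG). The SLC25A39 window lies at chr17:44324824-44325073 on the minus strand and the SLC25A3 window at chr12:98593436-98593685 on the plus strand.
SLC25A39: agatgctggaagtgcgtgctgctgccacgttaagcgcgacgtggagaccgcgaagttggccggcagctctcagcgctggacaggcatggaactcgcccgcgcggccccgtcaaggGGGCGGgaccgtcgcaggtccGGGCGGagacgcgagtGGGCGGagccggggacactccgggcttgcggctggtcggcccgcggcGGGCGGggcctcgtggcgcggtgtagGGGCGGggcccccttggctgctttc
SLC25A3: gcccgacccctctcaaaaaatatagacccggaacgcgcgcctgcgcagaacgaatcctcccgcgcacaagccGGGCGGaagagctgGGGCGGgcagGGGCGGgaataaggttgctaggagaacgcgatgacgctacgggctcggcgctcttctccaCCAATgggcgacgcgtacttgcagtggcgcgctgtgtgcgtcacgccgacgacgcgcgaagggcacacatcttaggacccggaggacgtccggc

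The SLC25A39 window was 74% G or C and held 5 GC boxes, and the SLC25A3 window was 66% G or C with 3 GC boxes and 1 CCAAT box. Promoters of 42 of the 50 carriers were found in the RefSeq table. Searching both strands, 30 of these 42 (71.4%) held GGGCGG, against 42.4% of all 27195 promoter windows of the same length. CCAAT was in 18 (42.9%, against 33% of all), and CCGGAAG, the core of sites for ETS factors such as ERG, in 8 (19%, against 8.82%). GCATGCG, from the site of the mitochondrial gene regulator NRF1, was in 2 (4.76%, against 3.55%). CCTTCCC, part of the C-rich element through which ZBTB7A is known to bind the fetal globin promoters, was in 2 (4.76%, against 13.2%), SLC25A20 and SLC25A47. Neither called gene held the last 2 of these words or CCGGAAG. The carrier windows had a median of 66% GC against 58% over all windows, and GC-rich words are more frequent in GC-rich sequence. The set of all windows was also not limited to protein-coding genes, whereas every carrier is protein-coding. A match is a description of these letters and not a site, and no binding data were used.

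Expression was concentrated in a few carriers. SLC25A6, SLC25A3, SLC25A39 and SLC25A5 together held 52.8% of the carrier reads in siZBTB7A and 51.4% in siNTC. All 50 carriers together had 36024 reads in siZBTB7A and 36881 in siNTC. This gave 3228 CPM in siZBTB7A, 3122 CPM in siNTC and a fold of 1.034 (1.019 to 1.049, counting error only). On this TMM-adjusted scale all genes together had 1.0126e+06 CPM in siZBTB7A and 9.8759e+05 CPM in siNTC. The carriers held 0.319% of gene reads in siZBTB7A and 0.316% in siNTC. The summed fold therefore carries the scaling and is not read as a rise of the family. Without SLC25A39 the summed fold was 1.018 (1.003 to 1.034), and without SLC25A39 and SLC25A3 it was 1.009 (0.992 to 1.026). These genes were left out because the same data called them higher, so a lower summed fold was fixed in advance.

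**Figure D1:**
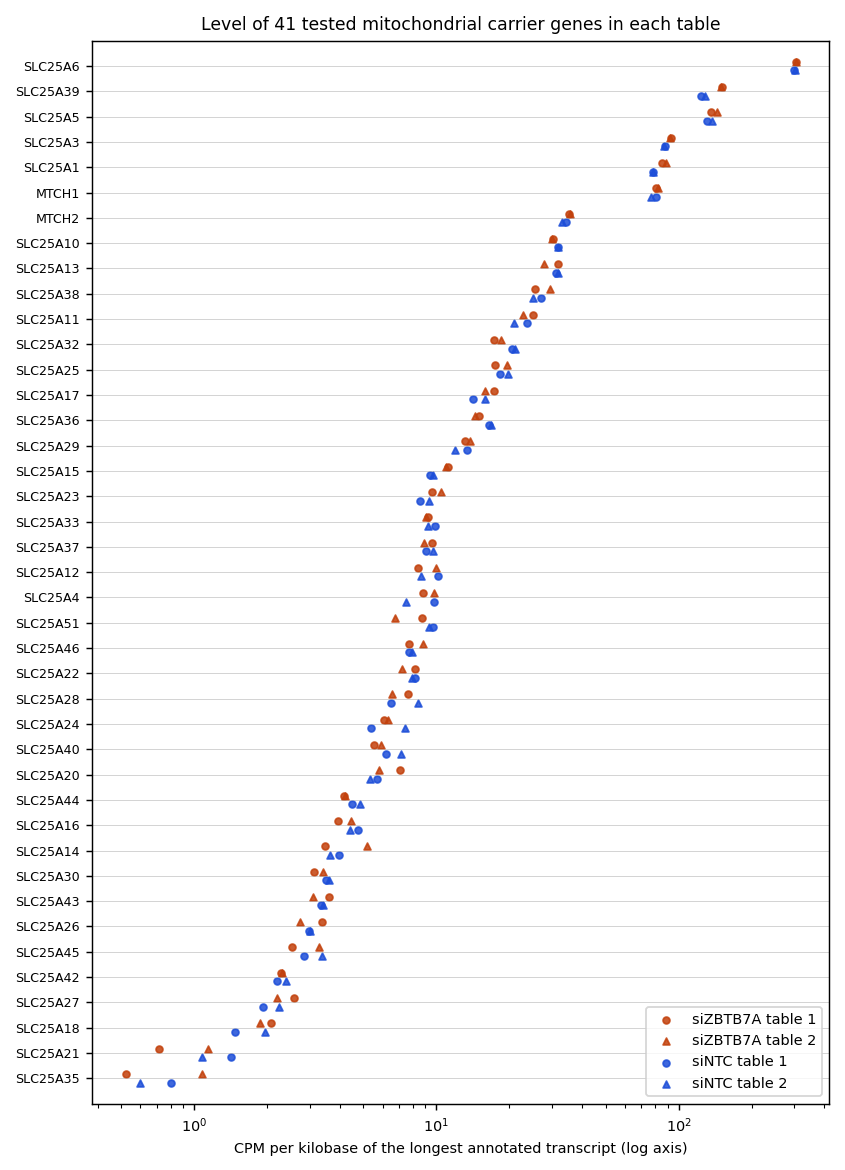
CPM per kilobase of the longest annotated transcript (log axis) for 41 of the 42 tested carriers, highest first. Circles and triangles are the 2 tables of siZBTB7A (orange, upper of each pair) and of siNTC (blue), with SLC25A6 highest (304.5 in siZBTB7A and 301.7 in siNTC) and SLC25A35 lowest (0.804 in siZBTB7A and 0.699 in siNTC).

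Levels between genes are given as CPM per kilobase of the longest annotated transcript. SLC25A6 was highest, at 304.5 in siZBTB7A and 301.7 in siNTC. SLC25A39 (150.2 in siZBTB7A and 125.8 in siNTC) and SLC25A5 (140.2 in siZBTB7A and 134.5 in siNTC) followed, and their counting intervals over both libraries overlapped, at 134.4 to 140.9 and 133.1 to 141.6. SLC25A3 stood at 92.7 in siZBTB7A and 87.7 in siNTC. SLC25A1 (87.0 in siZBTB7A and 78.3 in siNTC) and MTCH1 (81.5 in siZBTB7A and 78.8 in siNTC) again overlapped each other, and MTCH2 came next at 35.4 in siZBTB7A and 33.7 in siNTC. These places depended on the length used. With merged exon length SLC25A39 (94.4 in siZBTB7A and 79.1 in siNTC) stood behind SLC25A5 (119.1 in siZBTB7A and 114.2 in siNTC), and SLC25A3 (63.448 in siZBTB7A and 60.002 in siNTC) behind SLC25A1 (68.4 in siZBTB7A and 61.6 in siNTC). The longest annotated transcript of SLC25A3 has 6087 bases and its APPRIS principal transcript 1678, and with the second, a choice made after seeing the data, this gene was first at 336.4 in siZBTB7A and 318.1 in siNTC.

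The ADP/ATP carriers exchange matrix ATP for cytosolic ADP and are encoded by SLC25A4, SLC25A5, SLC25A6 and the germ-cell gene SLC25A31. SLC25A6 had 628.8 and 627.0 CPM in siZBTB7A and 620.4 and 623.6 CPM in siNTC, a fold of 1.009 (0.977 to 1.04; edgeR adjusted p = 0.828). Both siZBTB7A tables lay just above both siNTC tables, by less than the counting interval. SLC25A5 had 173.5 and 183.7 CPM in siZBTB7A and 167.2 and 175.4 CPM in siNTC, which overlapped, with a fold of 1.04 (0.980 to 1.11). SLC25A4, the form known for heart and skeletal muscle, had 39.2 and 43.4 CPM in siZBTB7A and 43.6 and 33.3 CPM in siNTC. Its 2 siNTC tables enclosed the siZBTB7A tables, and its fold was 1.08 (0.944 to 1.23). SLC25A31 had 0 reads in both libraries, which allows up to 0.269 CPM in siZBTB7A and 0.254 CPM in siNTC (3 reads over a group, counting error only).

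Reads can be assigned among these paralogs only where their sequences differ. The coding sequences of SLC25A6, SLC25A5 and SLC25A4 have the same length, 897 bases including the stop codon, and were identical at 78.8% of bases between SLC25A6 and SLC25A5, 77.9% between SLC25A6 and SLC25A4 and 77.3% between SLC25A5 and SLC25A4. The longest run shared by all 3 was 14 bases. The 60 coding bases in which the 3 genes were most alike (coding bases 76 to 135 from the start codon, GENCODE 29) are shown with capitals where SLC25A5 or SLC25A4 differs from SLC25A6.
SLC25A6: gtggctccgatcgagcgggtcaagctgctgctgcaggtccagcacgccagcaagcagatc
SLC25A5: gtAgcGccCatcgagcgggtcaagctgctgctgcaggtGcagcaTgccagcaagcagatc
SLC25A4: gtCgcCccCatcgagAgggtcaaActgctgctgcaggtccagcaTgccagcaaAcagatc
Even here SLC25A5 differed from SLC25A6 at 5 bases and SLC25A4 at 7. In the least alike stretch, coding bases 397 to 456, each differed from SLC25A6 at 19.
SLC25A6: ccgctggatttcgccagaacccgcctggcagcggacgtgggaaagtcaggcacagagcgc
SLC25A5: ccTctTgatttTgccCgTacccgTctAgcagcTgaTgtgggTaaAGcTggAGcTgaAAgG
SLC25A4: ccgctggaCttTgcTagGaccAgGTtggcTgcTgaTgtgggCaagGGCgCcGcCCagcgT

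Overlap with processed pseudogenes was small in SLC25A5 and SLC25A6. Of all 50-base words in the principal transcript, 4.57% were shared with another annotated gene in SLC25A5 (5 pseudogenes) and 0.944% in SLC25A6 (1 pseudogene). The words of SLC25A3, SLC25A39 and SLC25A4 were shared with no other gene (0 words). The 40 pseudogenes named after carriers held 8 reads in siZBTB7A and 6 in siNTC in all. SLC25A6 lies in the pseudoautosomal region and has a copy on each sex chromosome, so its count depends on how the genome used for alignment treats the second copy, for which the labels give no detail. Sharing was far larger in SLC25A32 (87.9% of words), SLC25A10 (63.9%), SLC25A52 (29.3%), SLC25A51 (28.5%) and SLC25A33 (20.7%), and their counts are less certain.

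**Figure D2:**
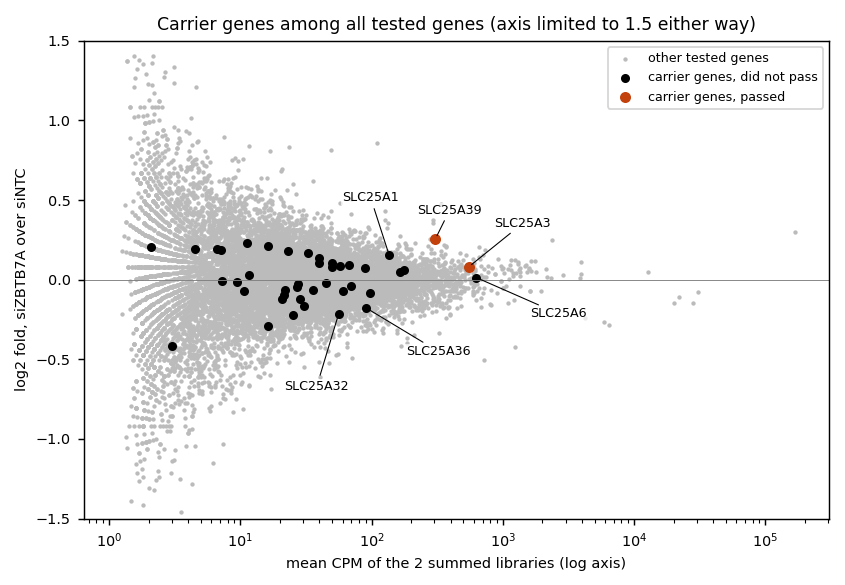
Log2 fold of siZBTB7A over siNTC against mean CPM (log axis) for all tested genes (grey) and the 42 tested carriers (black, or orange where the gene passed the test), with the vertical axis limited to 1.5 either way. The highest carrier is SLC25A39 at a log2 fold of 0.26 and the lowest SLC25A21 at -0.42.

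The remaining nucleotide carriers did not pass the test. SLC25A23, SLC25A24 and SLC25A25 encode calcium-regulated carriers that exchange ATP-Mg for phosphate, and had folds of 1.12 (0.970 to 1.30), 0.967 (0.823 to 1.14) and 0.972 (0.880 to 1.07). Their paralog SLC25A41 had 0 reads in both libraries. Over the 9 adenine nucleotide and phosphate carriers, 7 were tested, 1 was higher and 0 lower, and the median fold was 1.043, against 1.001 over all genes tested. The pyrimidine nucleotide carriers SLC25A33 and SLC25A36 both lay below 1. SLC25A36 had 87.1 and 83.7 CPM in siZBTB7A and 95.4 and 97.8 CPM in siNTC. Its tables did not overlap, and its fold of 0.884 (0.810 to 0.964) did not pass (edgeR adjusted p = 0.0755). The fold of SLC25A33 was 0.956 (0.832 to 1.10).

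Carboxylate carriers were mixed and 0 of 4 were called. SLC25A1, the citrate carrier, had 140.3 and 146.3 CPM in siZBTB7A and 129.3 and 128.8 CPM in siNTC. The groups did not overlap, and the fold of 1.11 (1.04 to 1.19) just missed the threshold (edgeR adjusted p = 0.0589). It passed with unstranded counts (adjusted p = 0.0363), and with the GC content and length correction its fold was 1.01. The oxoglutarate carrier gene SLC25A11 was at 1.07 (0.954 to 1.21) and the dicarboxylate carrier gene SLC25A10 at 0.951 (0.855 to 1.06). SLC25A21, which encodes the oxoadipate carrier of lysine breakdown, had the lowest fold of all tested carriers, 0.749 (0.449 to 1.23; edgeR adjusted p = 0.577). It had 11 and 18 reads in siZBTB7A and 23 and 18 in siNTC, which overlapped.

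Of 9 amino acid carriers, 8 were tested and 0 called, with a median fold of 1.021. SLC25A12 and SLC25A13 encode the aspartate/glutamate carriers of the malate-aspartate shuttle and had folds of 0.981 (0.837 to 1.15) and 0.943 (0.868 to 1.03). SLC25A13 was the more abundant, at 29.8 CPM per kilobase in siZBTB7A and 31.5 in siNTC, against 9.20 in siZBTB7A and 9.38 in siNTC for SLC25A12. SLC25A15, the ornithine carrier of the urea cycle, had 17.7 and 17.5 CPM in siZBTB7A and 15.0 and 15.3 CPM in siNTC, which did not overlap, and a fold of 1.16 (0.941 to 1.43; edgeR adjusted p = 0.482). SLC25A38, needed for glycine import at the start of haem synthesis, was at 1.06 (0.950 to 1.18), and the branched-chain amino acid carrier gene SLC25A44 at 0.893 (0.768 to 1.04). SLC25A22 and SLC25A18 encode glutamate carriers and stood at 0.954 (0.798 to 1.14) and 1.14 (0.763 to 1.71). SLC25A29, for basic amino acids, was at 1.07 (0.965 to 1.18). SLC25A2, a second ornithine carrier gene, had 6 reads in siZBTB7A and 7 in siNTC and was not tested.

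**Figure D3:**
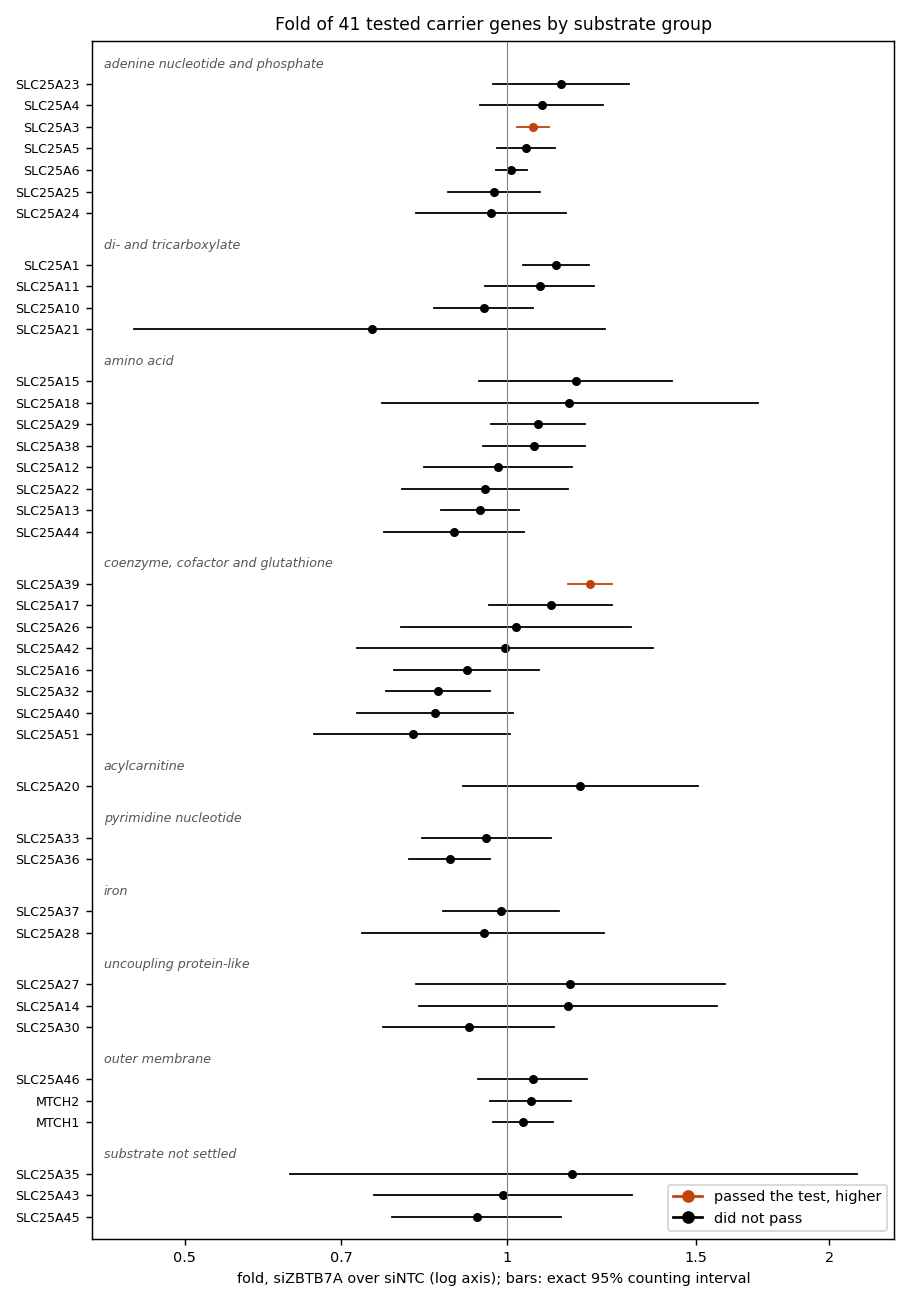
Fold of siZBTB7A over siNTC (log axis) for 41 of the 42 tested carriers by substrate group, with exact 95% counting intervals. Over all 42, 37 intervals include 1; SLC25A39 and SLC25A3 (orange) passed the test.

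Coenzyme, cofactor and glutathione carriers included SLC25A39, with the highest fold of all tested carriers, and 3 of the 5 with the lowest. SLC25A40 is the close paralog of SLC25A39 and is known to share its part in glutathione import. It had 22.41 and 23.97 CPM in siZBTB7A and 25.14 and 28.98 CPM in siNTC, which did not overlap, and its fold of 0.857 (0.724 to 1.01) did not pass (edgeR adjusted p = 0.319). SLC25A40 was also much less abundant than SLC25A39, at 5.74 CPM per kilobase in siZBTB7A and 6.70 in siNTC. SLC25A51, which encodes the mitochondrial NAD carrier, had 16.4 and 12.7 CPM in siZBTB7A and 18.1 and 17.5 CPM in siNTC, without overlap, and a fold of 0.816 (0.661 to 1.01; edgeR adjusted p = 0.293). SLC25A32, for folate and FAD, had 50.1 and 53.6 CPM in siZBTB7A and 59.4 and 61.0 CPM in siNTC. Its groups did not overlap, and its fold of 0.862 (0.771 to 0.963) did not pass in the stranded counts (edgeR adjusted p = 0.106) but did in the unstranded ones (adjusted p = 0.0303). The unstranded count of this gene was 0.787 of its stranded count, and most of its words are shared with other annotated genes, as given above.

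The other cofactor carriers did not pass the test. The peroxisomal carrier gene SLC25A17 was at 1.10 (0.963 to 1.25). SLC25A16 and SLC25A42 encode carriers linked to coenzyme A and were at 0.917 (0.785 to 1.07) and 0.996 (0.725 to 1.37). SLC25A26, for S-adenosylmethionine, was at 1.02 (0.797 to 1.30), and SLC25A52, the paralog of SLC25A51, had 0 reads. Of the 10 genes of this group, 9 were tested, with 1 higher, 0 lower and a median fold of 0.996. The acylcarnitine carrier gene SLC25A20 was at 1.17 (0.910 to 1.51), from 13.3 and 10.9 CPM in siZBTB7A and 10.7 and 9.99 CPM in siNTC (edgeR adjusted p = 0.553).

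The smaller groups also had 0 calls. The mitoferrin genes SLC25A37 and SLC25A28, for iron import, were at 0.987 (0.872 to 1.12) and 0.951 (0.733 to 1.23). Among genes resembling the uncoupling proteins, SLC25A14, SLC25A27 and SLC25A30 were at 1.14 (0.827 to 1.57), 1.15 (0.822 to 1.60) and 0.921 (0.765 to 1.11). SLC25A27, a brain-enriched member, had 42 and 37 reads in siZBTB7A and 33 and 40 in siNTC, which overlapped. UCP1, UCP2 and UCP3 themselves had 0, 15 and 1 reads in siZBTB7A and 0, 8 and 8 in siNTC and were not tested. The outer membrane genes MTCH1, MTCH2 and SLC25A46 were at 1.035 (0.971 to 1.10), 1.052 (0.964 to 1.15) and 1.056 (0.940 to 1.19). MTCH2, which encodes an insertase for tail-anchored proteins, had 91.5 and 91.8 CPM in siZBTB7A and 88.5 and 85.8 CPM in siNTC, without overlap. Of the 7 carriers with no settled substrate, 3 were tested, SLC25A35 at 1.15 (0.627 to 2.12), SLC25A43 at 0.992 (0.751 to 1.31) and SLC25A45 at 0.937 (0.781 to 1.12). SLC25A35 had 8 and 17 reads in the siZBTB7A tables and 13 and 10 in the siNTC tables, and its direction turned when the second siZBTB7A table was left out (log2 fold -0.41). SLC25A34, SLC25A48, SLC25A53 and SLC25A47 had 14, 9, 17 and 2 reads in siZBTB7A and 16, 8, 10 and 1 in siNTC.

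The SD of the log2 fold was 0.14 over 39 carriers at 5 CPM or more and 0.18 over 10119 protein-coding genes at that level. The sets were not matched on read level and counting error adds to both, so these values do not show that carriers were steadier. Among the 42 tested, 26 lay within 1.1-fold and 40 within 1.2-fold. The shares of all tested genes within these limits are not given, so the counts are not read as particular to the carriers. A fold above 1 was found for 22, against 50.2% of all genes tested, and the median fold was 1.015 against 1.001. The counting interval lay above 1 in 3 carriers (SLC25A39, SLC25A3 and SLC25A1) against 8.54% of all genes, and below 1 in 2 (SLC25A36 and SLC25A32) against 8.52%. A tested carrier had a median of 354 reads in siZBTB7A and 373 in siNTC, and the upper bound of its interval was 1.35 times the lower at the median, and a difference within such an interval was not detectable at this depth.

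The fold moved with the base composition and length of the transcript. Over 10119 protein-coding genes at 5 CPM or more, Spearman's rho between the log2 fold and transcript GC content was 0.26, and with transcript length -0.23. Over 39 carriers they were 0.23 and -0.38. These are correlations across genes of the same 2 libraries and genes are not replicates. With a spline correction for both, SLC25A39 and SLC25A3 still passed, and SLC25A6, whose transcript is 64.9% GC, was called lower, at a log2 fold of -0.11 and a fold of 0.926 (adjusted p = 0.00149), against a log2 fold of 0.01 as counted. The correction takes the longest annotated transcript, which for SLC25A3 need not be the expressed one. The share of gene reads from mitochondrial DNA was 20.2% in siZBTB7A and 17.1% in siNTC. Multi-mapping reads were 22.2% of all reads in siZBTB7A and 24.4% in siNTC, and reads in no annotated gene 23.1% in siZBTB7A and 20.6% in siNTC. Their part in these folds was not tested.

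**Figure D4:**
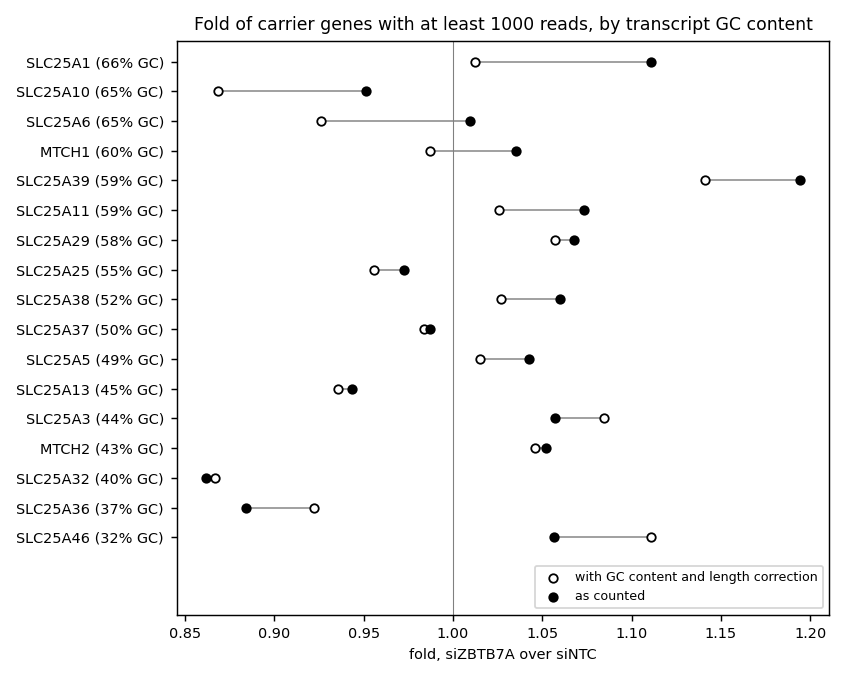
Fold of siZBTB7A over siNTC for carriers with at least 1000 reads, ordered by transcript GC content, as counted (filled) and after the GC content and length correction (open). SLC25A6 stood at 1.009 as counted and 0.926 corrected, and SLC25A39 at 1.19 and 1.14.

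Reads on the opposite strand were at most 4.69% of both strands in 38 of the 42 tested carriers and more frequent in 4. The opposite strand held 68.0% of the reads of both strands at SLC25A26, 83.3% at SLC25A35, 65.7% at SLC25A21 and 29.7% at SLC25A18. At SLC25A26 these were 278 reads in siZBTB7A and 294 in siNTC, against 132 in siZBTB7A and 137 in siNTC on the gene's own strand. Over all carriers the opposite strand had 658 reads in siZBTB7A and 698 in siNTC, a fold of 0.998 (0.895 to 1.11).

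Genes that import, accompany or use the carriers were described from lists of 48 genes, the uncoupling proteins above included. Of 13 genes of the carrier import route (TOM receptors, small TIM chaperones and the TIM22 complex), 0 were called by edgeR and the median fold was 1.022. Over all genes tested, 2.25% were called higher and 2.72% lower. Of 18 genes of other mitochondrial transport proteins, 1 was lower and 0 higher, with a median fold of 0.989. The lower gene was SFXN1, which encodes a serine transporter of the inner membrane, with 737 reads in siZBTB7A, 919 in siNTC and a fold of 0.849 (0.769 to 0.936; edgeR adjusted p = 0.0296). With the GC content and length correction its adjusted p was 0.0544. Of 13 tested genes of matrix enzymes fed by carriers, 1 was higher and 0 lower, with a median fold of 1.041. The higher gene was ALAS1, the first enzyme of haem synthesis, with 615 reads in siZBTB7A and 508 in siNTC. Its fold was 1.28 (1.14 to 1.44, edgeR adjusted p = 0.00317), and 1.24 with the GC content and length correction (edgeR adjusted p = 0.0205). The glycine carrier gene SLC25A38 and the mitoferrin genes of the same pathway did not pass, as given above.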

How the data were processed

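Gene counts of 4 tables (2 siZBTB7A, 2 siNTC) were used. The authors deposited whole-number read counts per gene with no normalization, in the layout of STAR gene counts. Per the submitters' processing notes, STAR 2.4.2a was run and the builds were hg19 and GRCh37; no annotation release is stated in the sources used here. In this layout, multi-mapping reads and reads overlapping more than 1 gene stay out of gene counts. Column 4, the strand that held 24.9 to 25.5 times the reads of the other, was used. Rows that name no gene held 50.8% to 51.2% of reads and were left out. Names, lengths and GC content came from GENCODE 29, on another build, so no gene coordinates are given with the counts.

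The test was edgeR 4.0.16 in R 4.3.3 (quasi-likelihood, robust, TMM, filterByExpr, group as the only term). Folds came from the summed tables over TMM-scaled totals with exact 95% Clopper-Pearson intervals, which cover counting error only. Alternatives were DESeq2 1.42.0, DESeq2 size factors, no filter, a mean of at least 1 CPM, unstranded counts, a replicate block, leaving out each table, an exact binomial test, a spline correction (4 degrees of freedom each) for GC content and length, and, for levels, merged exon length. APPRIS transcript length was added after seeing the data. The fit was tested on simulated data. Python 3.11.15 and scipy 1.17.1 were also used.

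Members and lists were chosen with earlier results of these data known. Members named with values were those past the test, the 5 with the highest level per kilobase and the 5 with the highest and the 5 with the lowest fold, and called genes of each list; other members are given for completeness, except 1 tested carrier whose own values are not reported here. Of 63 list and marker entries, 62 were matched, and the endothelial marker PECAM1 was not.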

Additional observations from a re-analysis of the deposited data

How the results depend on the processing

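The 639 calls over all genes became 85 in DESeq2, 362 with the GC content and length correction and 303 to 373 with a table left out; 502 to 663 were called under the other settings. DESeq2 gave no adjusted p for 11707 genes, 36 of them carriers. The 2 carriers called higher became 1 (SLC25A39) in DESeq2 and 1 with any table left out and 3 with unstranded counts (SLC25A1 added). The 0 carriers called lower became 1 with unstranded counts (SLC25A32) and 1 with the GC content and length correction (SLC25A6, log2 fold -0.11); without each table the count was 0. SLC25A35 ranged from -0.41 to 0.62 (log2) with a table left out. The cause of these changes was not tested. Of the 10 carriers with the highest level, 10 remained with merged exon length and 9 with APPRIS length. Same-numbered tables did not deviate together (correlation -0.023 over 7461 genes), and with the replicate block 654 genes and the same 2 carriers were called. The median of 354 reads in siZBTB7A and 373 in siNTC limits what can be seen in most carriers.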
